A study of Mus musculus with 6 samples.

Results

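Heat shock chaperone genes were followed in HL-1 cells, an established mouse atrial cardiomyocyte line that keeps dividing in culture, that had received either a scrambled control siRNA or 100 nM of an siRNA targeting the circular RNA Circ-INSR, which is made from Insr, the insulin receptor gene. All libraries came from the same line, and each group had 3 libraries. The time between transfection and harvest is not given in the sources used here. The 34 genes were taken by name from a fixed list, and all 34 were found among the 38087 gene IDs of the count files and passed the filter on low counts. They comprise the transcription factor Hsf1, 5 cytosolic HSP70 and HSP110 genes, 2 HSP90 genes, 3 small heat shock protein genes, 8 subunits of the cytosolic chaperonin TRiC, 5 HSP40 genes, 3 co-chaperones of HSP70 or HSP90, and 7 mitochondrial chaperones and protease subunits. Levels are given as CPM, counts per 1000000 counts of a library, with library sizes scaled by edgeR's TMM factors. Changes are log2 fold changes of the Circ-INSR siRNA group over the control group, with a standard error (SE).

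Chaperones bind unfolded or partly folded proteins and keep them from aggregating. HSP70 proteins bind short exposed stretches in cycles of ATP hydrolysis that HSP40 (J-domain) proteins start and nucleotide exchange factors end, HSP90 acts later on nearly folded clients such as kinases and receptors, and the barrel-shaped TRiC encloses actin, tubulin and other clients. Small heat shock proteins hold unfolded proteins without ATP, and in the mitochondrial matrix HSPA9 takes up imported chains that the HSPD1 and HSPE1 chamber then folds. In heart muscle cells small heat shock proteins bind sarcomere and intermediate filament proteins, and BAG3 with HSPB8 and HSP70 directs damaged filament proteins to autophagy.

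Of the 34 genes, 19 rose and 9 fell after Circ-INSR siRNA and 6 did not pass the test (edgeR quasi-likelihood test over 16666 genes, with adjusted p under 0.05 as the threshold). Among all genes tested 57.0% were called, 28.5% of them higher and 28.5% lower as shares of the genes tested. The members' 55.9% called higher lay above that share, and their 26.5% called lower lay close to it. The members were chosen with earlier results of these data known, so this comparison is a description only. Among the 11115 genes expressed at least as highly as the lowest member, 35.8% were higher and 30.9% lower. That lowest member was Hspa1a, with a control mean of 5.19 CPM. Apart from Hspa1a and Hspa1b (10.3 CPM), every member had a control mean of at least 42.4 CPM, the level of Clpp. These 11115 genes are thus not matched to the members in expression. The median log2 fold change was 0.18 over the members and -0.0045 over all genes tested. At least 0.5 on the log2 scale, up or down, was reached by 4 members, Hspd1, Cct2, Dnaja3 and Cryab, against 28.5% of all genes, and 0 members reached 1, against 8.95% of all genes. Of the 11115 genes expressed at least as highly as the lowest member, 2198 reached 0.5 and 467 reached 1. For 20 members every Circ-INSR siRNA library was higher than every control and for 10 every one was lower, while 63.3% of all genes had groups without overlap, 32.0% higher and 31.3% lower. Summed over the 34 genes, the level went from 14049 ± 193 CPM in control libraries to 17104 ± 93.6 CPM after Circ-INSR siRNA (SD, n = 3 each), and Hsp90ab1 and Hspa8 contributed the largest levels. The RNA came from bulk cultures, so a change in the share of cells that express a gene and a change in RNA per cell cannot be told apart.

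**Figure D1:**
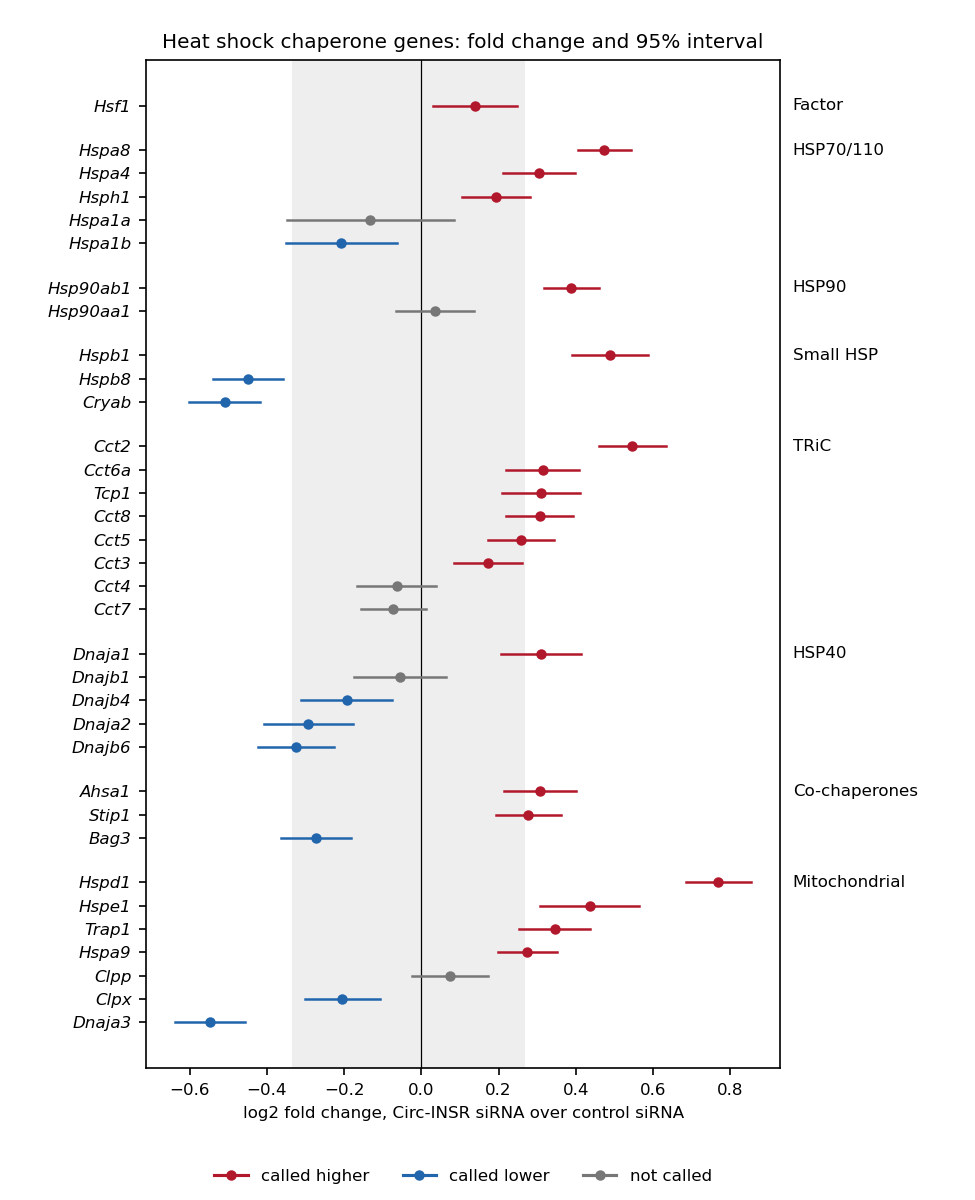
Log2 fold change of each of the 34 genes (Circ-INSR siRNA over control siRNA, x axis) with its 95% interval, grouped by class (right). Red genes were called higher, blue genes lower and grey genes were not called, and the grey band spans the 50% of all genes tested that lie in the middle (-0.33 to 0.27). Hspd1 is the farthest to the right at 0.77 and Dnaja3 the farthest to the left at -0.55.

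Total counts were 60024750 to 62523602 in control and 68468620 to 77037474 in Circ-INSR siRNA libraries. Among the controls, replicate 3 was the least like the rest: its chi-square over genes, divided by their number, was 31.3 against replicate 1 and 21.8 against replicate 2, which differed from each other by 6.99. It was the highest control for 19 of the 34 members and the lowest for 10. The 1219 genes with the longest exonic length among those with a mean log2 CPM above 1 were also compared. Over these genes, the median log2 deviation of control replicate 3 from the mean of all libraries was -0.0979, without TMM scaling. That deviation was 0.0498 in replicate 1, 0.0534 in replicate 2 and -0.0246 to 0.0318 in the Circ-INSR siRNA libraries. Insr itself was lower, at a log2 fold change of -0.43 (edgeR adjusted p = 0.000393; SE 0.07), and its gene counts do not measure the circular RNA, which has no poly(A) tail. Of 10 atrial cardiomyocyte markers 9 had at least 1 CPM in the mean of either group's libraries, and the list summed to between 6642 and 6913 CPM in control and between 7380 and 7526 CPM in Circ-INSR siRNA libraries. The sum covers opposite moves. Mean levels of Actc1 (887.4 to 1625 CPM), Myh6 (1564 to 2204 CPM), Myl4, Gata4 and Nkx2-5 were higher after Circ-INSR siRNA. Those of Tnnt2 (2021 to 1216 CPM), Myl7 (1419 to 1241 CPM) and Tbx5 were lower, and Nppa and Sln were nearly level. Sln had under 1 CPM. The 5 endothelial markers summed to 27.3 to 30.7 CPM and 82.7 to 86.6 CPM, mostly Kdr, with Cdh5 near 0.02 CPM in each group. The 7 fibroblast markers summed to 162.8 to 181.8 and 115.4 to 130.5 CPM, mostly Col1a1, with Tcf21 at 0. The 5 macrophage markers summed to at most 7.47 CPM, with Adgre1 at 0, and the 3 smooth muscle markers to 154.8 to 165.4 and 191.7 to 201.6 CPM. The part of such cells in the changes below was not tested.

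Hsf1 encodes the factor that binds heat shock elements, inverted repeats of a short unit, and switches on chaperone genes under stress. Its control libraries had 46.1, 46.7 and 44.7 CPM and its Circ-INSR siRNA libraries 52.9, 50.6 and 48.0 CPM. The groups did not overlap, and the rise was 0.14 (SE 0.05; edgeR adjusted p = 0.0300). This call was lost with upper-quartile scaling (adjusted p = 0.0532), with total-count scaling (0.121), and when control replicate 2, Circ-INSR siRNA replicate 1 or Circ-INSR siRNA replicate 2 was left out (0.0531, 0.135 and 0.0802 in the edgeR test). Of the other heat shock factors and their regulators 1 of 5 rose and 2 fell (28.5% of all genes tested each way). Hsf4, a heat shock factor known from the lens, fell from 49.4 ± 1.97 to 30.1 ± 1.43 CPM (SD, n = 3 each), and Hsbp1, which encodes a small protein that binds HSF1, from 233.8 ± 8.89 to 187.6 ± 4.86 CPM.

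The promoters of members that moved in opposite directions were compared for the letters of the heat shock element. Windows from 250 bases before to 50 bases after a start were taken from RefSeq on GRCm38.p6, the build called mm10, and 27 of the 34 members had at least 1 window. Hsf1, Hspa8, Hspa9, Cryab, Hsp90aa1, Hsp90ab1 and Cct4 had none in the table. An element of 2 inverted units was searched as GAANNTTC or TTCNNGAA on both strands, and one of 3 units as either of these with a further inverted unit after 2 more bases of any kind. Each 3-unit match contains overlapping 2-unit matches. At least 1 match of 2 units lay in a window of 15 of the 27 members (55.6%), against 17.0% of the 27025 genes in the table. A match of 3 units was found for 4 members (14.8%), against 0.662% of genes. The 4 were Hspd1, Hspe1 and Hsph1, which rose, and Dnajb6, which fell. Hspd1 and Hspe1 share the same run, which is thus counted for both. Hspa1a and Hspa1b, both among the 15, have windows that differ at 4 positions only. Of the 15 members with a 2-unit match 8 rose and 5 fell, and of the 12 without 7 rose and 3 fell, so members with and without these letters were found on both sides. The shares of all genes tested were 28.5% higher and 28.5% lower, and the calls of other genes with these letters were not counted. A match is a description of the letters in the window and says nothing of binding.

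The following windows are shown because they carry such a match and belong to genes that rose (Hspd1 with Hspe1, Hsph1, Hspb1) or fell (Dnajb6, Hspb8, Hspa1b). Each reads in the direction of its gene, and capitals mark the 2-unit matches and the runs they form where they overlap.
Hspd1, chr1:55087883-55088182, minus strand: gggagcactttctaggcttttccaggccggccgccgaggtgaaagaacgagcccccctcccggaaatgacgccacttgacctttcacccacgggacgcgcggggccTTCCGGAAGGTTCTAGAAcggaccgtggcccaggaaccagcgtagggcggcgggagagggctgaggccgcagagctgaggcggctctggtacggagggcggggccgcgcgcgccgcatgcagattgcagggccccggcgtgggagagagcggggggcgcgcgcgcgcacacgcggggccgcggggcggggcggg
Hsph1, chr5:149636287-149636586, minus strand: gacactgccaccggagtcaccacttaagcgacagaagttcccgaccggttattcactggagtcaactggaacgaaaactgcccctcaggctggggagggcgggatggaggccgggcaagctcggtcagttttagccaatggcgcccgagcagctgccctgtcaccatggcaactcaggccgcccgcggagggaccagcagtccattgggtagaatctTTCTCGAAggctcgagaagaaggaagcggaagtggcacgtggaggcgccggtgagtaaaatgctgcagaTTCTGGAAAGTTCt
Hspb1, chr5:135887669-135887968, plus strand: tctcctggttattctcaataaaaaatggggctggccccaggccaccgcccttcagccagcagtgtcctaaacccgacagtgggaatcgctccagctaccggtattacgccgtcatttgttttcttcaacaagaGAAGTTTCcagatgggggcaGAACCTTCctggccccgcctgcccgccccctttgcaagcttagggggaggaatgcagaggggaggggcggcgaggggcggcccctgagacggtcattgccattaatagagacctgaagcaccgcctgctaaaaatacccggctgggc
Dnajb6, chr5:29735648-29735947, plus strand: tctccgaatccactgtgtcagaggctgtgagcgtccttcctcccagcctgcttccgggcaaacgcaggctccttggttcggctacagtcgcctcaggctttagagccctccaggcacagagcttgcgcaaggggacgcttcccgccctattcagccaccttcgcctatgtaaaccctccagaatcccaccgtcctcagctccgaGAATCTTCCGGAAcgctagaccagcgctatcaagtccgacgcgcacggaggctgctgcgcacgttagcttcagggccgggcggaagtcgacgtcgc
Hspb8, chr5:116422815-116423114, minus strand: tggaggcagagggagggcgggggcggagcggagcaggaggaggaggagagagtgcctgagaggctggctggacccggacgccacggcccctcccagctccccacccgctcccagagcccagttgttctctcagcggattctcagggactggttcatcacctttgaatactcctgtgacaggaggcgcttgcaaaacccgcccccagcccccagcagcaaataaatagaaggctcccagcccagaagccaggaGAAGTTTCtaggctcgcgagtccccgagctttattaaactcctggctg
Hspa1b, chr17:34959189-34959488, minus strand: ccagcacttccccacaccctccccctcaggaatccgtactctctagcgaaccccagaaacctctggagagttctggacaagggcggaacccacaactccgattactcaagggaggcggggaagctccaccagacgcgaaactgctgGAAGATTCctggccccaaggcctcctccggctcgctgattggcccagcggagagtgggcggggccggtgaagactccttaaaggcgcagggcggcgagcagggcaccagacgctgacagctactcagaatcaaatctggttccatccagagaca
A further Hspd1 start in the table has a window without these letters. The Hspd1 window shown holds a run of 3 overlapping 2-unit matches from base -144 to -127 relative to the start. Hspe1 is read the other way from a start 216 bases away, and the same run lies at -89 to -72 of Hspe1, so this element stands between these starts. The further Hspd1 start lies beyond that of Hspe1, and the element is not between those. In Hspb1 the matches spread from -117 to -90, in the Dnajb6 window shown the run lies at -46 to -34, and in Hspb8 the match lies just after the start. In the Hsph1 window shown the matches lie between -33 and 49. From another start in the table, the same letters lie at -127 to -115 of Dnajb6 and between -54 and 28 of Hsph1. The Hspa1a window differs from that of Hspa1b at 4 of 300 positions and has the same match at -104 to -97.

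Among the cytosolic HSP70 genes the abundant constitutive member rose and the heat-inducible members did not. Hspa8, which encodes the constitutive HSC70 (chromosome 9, 40800984 to 40810087, mm10), had 1943, 1928 and 1906 CPM in control and 2681, 2693 and 2651 CPM in Circ-INSR siRNA libraries. Every Circ-INSR siRNA library lay above every control, a rise of 0.47 (SE 0.03; edgeR adjusted p = 1.85e-07), or 38.9%. Hspa1a and Hspa1b, the heat-inducible pair on chromosome 17, were close to the bottom of the members. Hspa1b had 10.5, 10.3 and 10.2 CPM against 8.90, 8.86 and 9.07 CPM, a log2 fold change of -0.21 (SE 0.07; edgeR adjusted p = 0.0175). The Hspa1b call was lost without Circ-INSR siRNA replicate 1 (0.0557) or 2 (0.0628) and after removal of the length and GC trend (adjusted p = 0.131 in the edgeR test). Hspa1a had 5.47, 5.45 and 4.63 CPM against 4.43, 4.84 and 4.91 CPM. Its groups overlapped, and its log2 fold change of -0.13 had a 95% interval from -0.35 to 0.08. The transcripts of the pair are 99.2% identical over 2201 bases, so reads could be shared between them or left out. Their summed counts gave a log2 fold change of -0.18 (SE 0.06; edgeR adjusted p = 0.0228). The level of Hspa8 was 124.2 ± 3.77 times that of the summed pair in control and 195.8 ± 5.82 times after Circ-INSR siRNA (SD, n = 3 each). That ratio did not overlap between groups (exact permutation test, two-sided p = 0.1, the smallest that 3 against 3 libraries allow). As Hspa8 rose and the summed pair fell, each without overlap, this outcome was fixed beforehand. Each ratio computed here separated in the same way. These include Cct2 to Cct7, Hspa8 to Hsph1, Dnaja1 to Dnaja2 and Hspa8 to Bag3 (exact permutation test, two-sided p = 0.1 each). How often the ratios of gene pairs drawn at random separate was not tested, here or for the ratios below.

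Both HSP110 genes among the members, whose products exchange nucleotide on HSP70, rose. Hspa4 had 303, 322 and 315 CPM in control and 391, 396 and 374 CPM in Circ-INSR siRNA libraries, a log2 fold change of 0.31 (SE 0.04; edgeR adjusted p = 7.45e-05). Hsph1 had 236, 236 and 227 CPM against 263, 272 and 265 CPM, a smaller rise of 0.19 (SE 0.04; edgeR adjusted p = 0.00155). Neither gene's groups overlapped, as was so for 63.3% of all genes tested. Of 7 other genes of the HSP70 and HSP110 families 6 were tested, and 1 rose and 1 fell (28.5% of all genes each way). Among them Hspa4l, a further HSP110 gene, was not called, at 155 ± 5.57 and 161.7 ± 4.76 CPM with overlapping groups. Its log2 fold change was 0.06 (SE 0.05; edgeR adjusted p = 0.267). The riser was Hspa13, from 36.5 ± 2.21 to 42.8 ± 2.57 CPM, and the faller was Hspa2, which is known for its role in sperm development, from 25.8 ± 0.368 to 20.1 ± 0.720 CPM (SD, n = 3 each).

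Of the HSP90 genes Hsp90ab1, the constitutive beta form, rose and Hsp90aa1, the inducible alpha form, did not pass the test. Hsp90ab1 had 2691, 2607 and 2583 CPM in control and 3473, 3403 and 3445 CPM in Circ-INSR siRNA libraries, a log2 fold change of 0.39 (SE 0.03; edgeR adjusted p = 1.07e-06). Hsp90aa1 had 914, 968.5 and 1037 CPM against 1010, 996 and 985 CPM. The Circ-INSR siRNA libraries of Hsp90aa1 lay within the range of its controls, and its log2 fold change was 0.03, with a 95% interval from -0.07 to 0.14. Without control replicate 3, its highest control, the value was 0.09 and passed the test (edgeR adjusted p = 0.0301). With total-count scaling, without control replicate 1 or after removal of the length and GC trend, the sign turned (-0.01 in each case). The ratio of Hsp90ab1 to Hsp90aa1 was 2.95, 2.69 and 2.49 in control and 3.44, 3.42 and 3.50 in Circ-INSR siRNA libraries, which did not overlap (exact permutation test, two-sided p = 0.1, the smallest possible). Per kb of transcript, Hsp90ab1 (1043 CPM per kb in control) and Hspa8 (804.3 CPM per kb) had the highest levels of the 34 genes, and Hspa1a (1.75 CPM per kb) and Hspa1b (3.69 CPM per kb) the lowest.

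**Figure D2:**
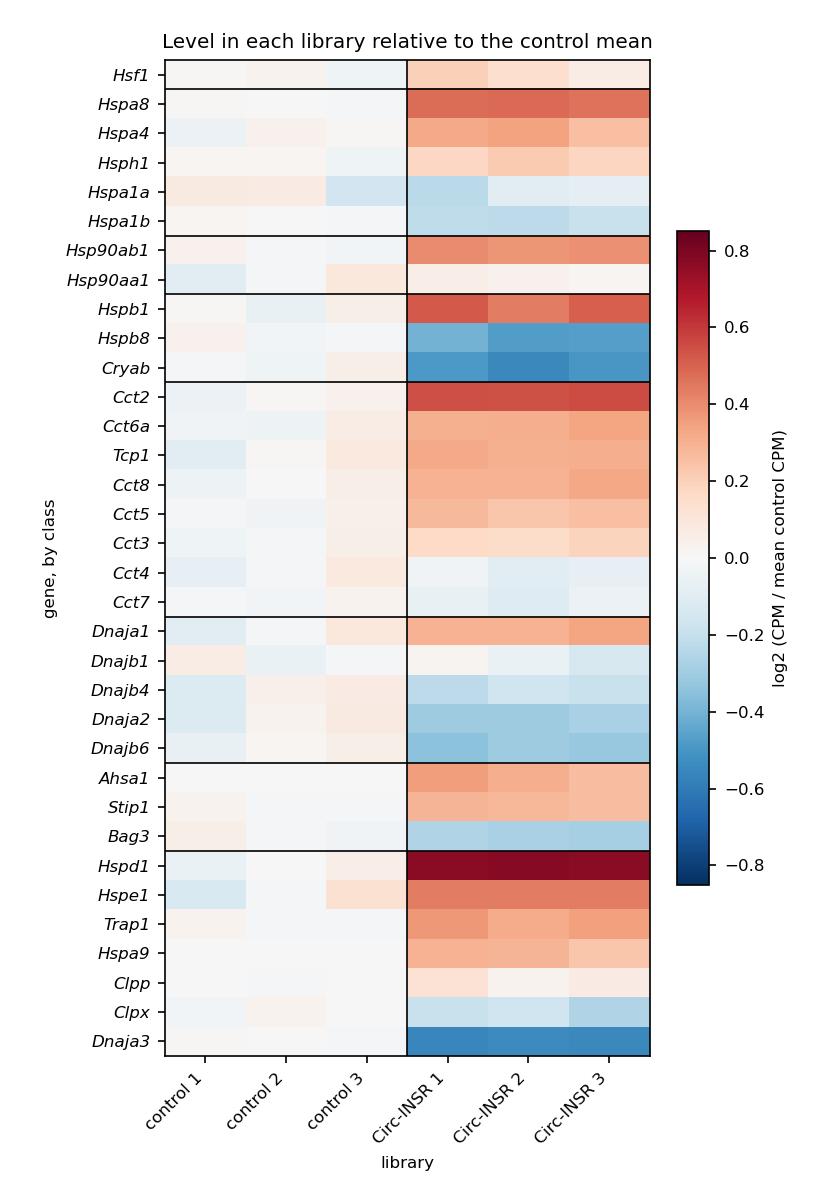
Level of each gene (rows, by class and fold change) in each of the 6 libraries (columns), as log2 of CPM over the gene's mean control CPM. The 3 Circ-INSR siRNA columns are nearly alike for Hspd1 (1257 to 1264 CPM), and control 3 has the highest control value for Hspe1 (169 CPM).

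Of the 3 co-chaperones of HSP70 and HSP90, 2 rose and 1 fell. For these and the 2 lists below, the shares of all genes tested were 28.5% higher and 28.5% lower. Stip1, which carries clients from HSP70 to HSP90, rose by 0.28 (SE 0.04; edgeR adjusted p = 6.55e-05), and Ahsa1, which stimulates the HSP90 ATPase, by 0.31 (SE 0.04; edgeR adjusted p = 6.95e-05). Their levels went from 365.9 ± 6.64 to 443.5 ± 4.47 CPM and from 123.3 ± 0.373 to 152.5 ± 4.83 CPM (SD, n = 3 each). Bag3, the HSP70 nucleotide exchange factor that works with HSPB8, had 206, 197 and 195 CPM in control and 167, 165 and 164 CPM in Circ-INSR siRNA libraries. All Circ-INSR siRNA values of Bag3 lay below all controls, a log2 fold change of -0.27 (SE 0.04; edgeR adjusted p = 0.000155). Of 10 other co-chaperones of the HSP70 cycle 4 rose and 2 fell, with St13 (0.29, SE 0.04) and Tomm34 (0.33, SE 0.05) having the smallest adjusted p. St13 encodes the HSP70-interacting protein Hip, and Tomm34 a cytosolic adaptor of HSP70 and HSP90. Of 14 other HSP90 co-chaperones 4 rose and 5 fell. Cdc37l1, a relative of the kinase co-chaperone Cdc37, fell from 72.3 ± 3.44 to 34.8 ± 1.18 CPM (log2 fold change -1.05, SE 0.05). Ppp5c, a phosphatase bound by HSP90, fell from 84.6 ± 1.91 to 67.3 ± 1.87 CPM. The medians of these lists, 0.02 and 0.01, were near that of all genes.

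Of the 5 cytosolic HSP40 genes 3 fell, 1 rose and 1 did not pass the test. By comparison, 28.5% of all genes tested were lower and 28.5% higher. Dnaja1, a main J-domain partner of HSC70, had 391, 412 and 441.5 CPM in control and 509, 509.9 and 523.9 CPM in Circ-INSR siRNA libraries, a log2 fold change of 0.31 (SE 0.05; edgeR adjusted p = 0.000165). Its relative Dnaja2 had 143, 159 and 164 CPM against 126, 126 and 128 CPM, a log2 fold change of -0.29 (SE 0.05; edgeR adjusted p = 0.000509). These related genes thus moved apart, without overlap between groups in either. Dnajb6, whose product suppresses aggregation and binds intermediate filaments in muscle, had 109.8, 116 and 119 CPM against 90.1, 93.3 and 92.0 CPM (-0.32, SE 0.05; edgeR adjusted p = 7.39e-05). Dnajb4 fell from 59.5 ± 4.09 to 52.1 ± 1.04 CPM (-0.19, SE 0.05; edgeR adjusted p = 0.00928). Dnajb1, the inducible partner of HSP70, had 46.9 ± 1.98 and 45.2 ± 2.56 CPM (SD, n = 3 each), with overlapping groups and a log2 fold change of -0.05 (95% interval from -0.17 to 0.06). Of 12 other HSP40 genes 11 were tested, and 3 rose and 3 fell. Dnajb14, anchored in the endoplasmic reticulum membrane, fell from 41.4 ± 1.80 to 21.6 ± 1.17 CPM, and Dnajb5 from 24.4 ± 1.44 to 13.2 ± 0.825 CPM.

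All 3 small heat shock protein genes were called, 1 higher and 2 lower. Among all genes tested 57.0% were called, 28.5% in each direction, and 63.3% had groups without overlap. Hspb1, which encodes HSP25 (the mouse HSP27) and protects actin filaments, had 289, 275 and 297 CPM in control and 412, 388 and 409 CPM in Circ-INSR siRNA libraries. It rose by 0.49 (SE 0.05; edgeR adjusted p = 2.66e-06). Cryab, the alpha-B-crystallin of the Z-disc and desmin filaments, had 311, 306 and 325 CPM against 224, 215 and 223 CPM, a log2 fold change of -0.51 (SE 0.04; edgeR adjusted p = 1.14e-06). Hspb8, the small heat shock partner of BAG3, had 381, 365 and 369 CPM against 281, 268 and 268 CPM, a log2 fold change of -0.45 (SE 0.04; edgeR adjusted p = 2.62e-06). None of these 3 genes had overlapping groups. The ratio of Hspb1 to Cryab was 0.915 ± 0.0142 in control and 1.83 ± 0.0219 after Circ-INSR siRNA, and that of Hspb1 to Hspb8 was 0.773 ± 0.0286 and 1.48 ± 0.0409 (SD, n = 3 each). Of 7 other small heat shock genes 6 were tested, and 3 rose and 2 fell. Hspb2 rose by 0.49 (SE 0.06; edgeR adjusted p = 3.11e-05). Cryaa, the alpha-A-crystallin of the lens, was called lower at a very low level, with 0.364, 0.317 and 0.35 CPM against 0.0149, 0.0263 and 0 CPM.

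Cryab and Hspb2 lie head to head on chromosome 9 (50751325 to 50756636 on the plus strand and 50751078 to 50752354 on the minus strand, mm10), and their exons share 252 bases on opposite strands. Hspb2 had 19.05, 20.03 and 21.4 CPM in control and 28.9, 26.8 and 29.2 CPM in Circ-INSR siRNA libraries, so the neighbours changed in opposite directions. The ratio of Hspb2 to Cryab was 0.0612, 0.0655 and 0.0658 in control and 0.129, 0.124 and 0.131 in Circ-INSR siRNA libraries. These ratios did not overlap (exact permutation test, two-sided p = 0.1, the smallest possible). As each gene's groups were apart and the genes moved in opposite directions, this outcome was fixed beforehand. How reads in the shared bases were assigned is not given in the sources used here.

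The cytosolic chaperonin genes were mostly higher, with 6 of 8 called higher, 0 lower and 2 not called. Among all genes tested 28.5% were called higher and 28.5% lower. Cct2 rose most, from 271, 281 and 287 CPM in control to 409, 406 and 411 CPM in Circ-INSR siRNA libraries, a log2 fold change of 0.55 (SE 0.04; edgeR adjusted p = 4.01e-07). Cct6a had 263, 261 and 281 CPM against 330.5, 331.5 and 338 CPM (0.31, SE 0.04), and Tcp1 530.5, 569.6 and 599 CPM against 708, 698 and 699.8 CPM (0.31, SE 0.05). Cct8 had 576, 592 and 616 CPM against 730.4, 729.8 and 746 CPM (0.31, SE 0.04). In these genes every Circ-INSR siRNA library lay above every control, and control replicate 3 was the control nearest to them. Cct5 rose from 366, 361 and 379 CPM to 447, 434 and 441 CPM (0.26, SE 0.04). Cct3 rose least of the 6, from 432, 438 and 459 CPM to 498, 493.5 and 505.5 CPM (0.17, SE 0.04). Adjusted p of the 6 lay between 4.01e-07 and 0.00284 in the edgeR test. Cct4 and Cct7 differed from the other subunits in sign. Cct4 had 280.3, 291 and 311 CPM against 288, 277 and 280.3 CPM, with overlap and a log2 fold change of -0.06 (95% interval from -0.17 to 0.04). Cct7 had 564, 561 and 582 CPM against 544.5, 528.5 and 551 CPM, without overlap, and a log2 fold change of -0.07 (95% interval from -0.16 to 0.01; edgeR adjusted p = 0.129). Cct7 was called lower with total-count scaling (adjusted p = 0.0313), and both were called lower after removal of the length and GC trend (0.00896 for Cct4 and 0.00300 for Cct7 in the edgeR test). The median of the 8 was 0.28.

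The TRiC ring is built from all 8 subunits in equal number, so their transcript levels were also set side by side per kb of the principal transcript. Cct8 had the highest mean level in both groups, at 248.4 and 307.2 CPM per kb. In control libraries it was followed by Cct7 (233.2), Tcp1 (231.5), Cct3 (223.9), Cct5 (198.9), Cct2 (142.7), Cct4 (118.5) and Cct6a (109.2 CPM per kb), where the libraries of Cct7, Tcp1 and Cct3 overlapped, as did those of Cct8 and Tcp1 and of Cct4 and Cct6a. In Circ-INSR siRNA libraries Cct8 was followed by Tcp1 (286.9), Cct3 (252.5), Cct5 (237.8), Cct7 (221.8), Cct2 (208.5), Cct6a (135.9) and Cct4 (113.3 CPM per kb). The highest subunit exceeded the lowest by 2.25 to 2.33 times in control and by 2.63 to 2.76 times in Circ-INSR siRNA libraries. With the whole annotated exonic length in place of the principal transcript, these ratios were 2.77 to 2.80 and 3.45 to 3.62, and Cct8 was again the highest. The lowest subunit was Cct6a in control and Cct4 in Circ-INSR siRNA libraries by principal transcript. By exonic length it was Cct4 in Circ-INSR siRNA libraries too, and Cct4 or Cct3 in control libraries. The order below Cct8 depended on the length used, since by exonic length the control means were 192.6 for Cct8, 133.3 for Cct5, 112.6 for Tcp1, 109.3 for Cct2, 83.98 for Cct7, 74.04 for Cct6a, 70.05 for Cct4 and 69.5 CPM per kb for Cct3. Of 17 prefoldin subunits and other partners of TRiC and tubulin folding 6 rose and 4 fell, with a median of 0.0026. Vbp1, a prefoldin subunit, rose from 90.9 ± 12.1 to 132.6 ± 7.29 CPM, and Pdrg1, a member of a prefoldin-like complex, fell from 173.3 ± 4.80 to 94.8 ± 3.70 CPM (SD, n = 3 each).

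**Figure D3:**
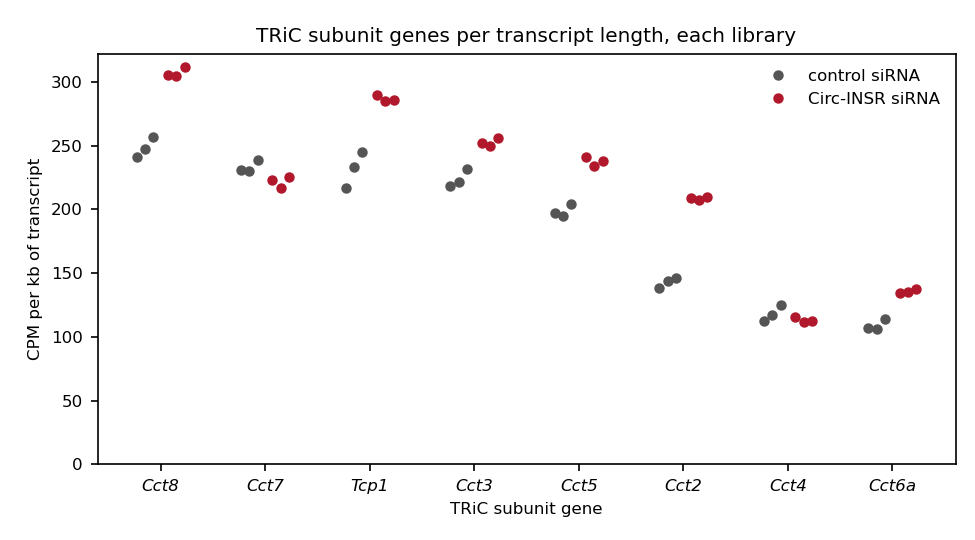
Level of each TRiC subunit gene in CPM per kb of its principal transcript (y axis, from 0), with 1 point for each library, control siRNA in grey and Circ-INSR siRNA in red. The red points lie above the grey for 6 subunits, and below them for Cct7. For Cct4 1 red point lies among the grey points, and the others lie at or below the lowest grey point.

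Of the 7 mitochondrial genes, the chaperones Hspd1, Hspe1, Hspa9 and Trap1 rose, Dnaja3 and Clpx fell, and Clpp did not pass the test. For comparison, 28.5% of all genes tested rose and 28.5% fell. Hspd1, the HSP60 chaperonin of the matrix (chromosome 1, 55077835 to 55088243, minus strand, mm10), had 711, 740.3 and 767 CPM in control and 1257, 1264 and 1260 CPM in Circ-INSR siRNA libraries. This was the largest change of the 34 genes, at 0.77 (SE 0.04; edgeR adjusted p = 2.34e-08), or 70.5%. Hspe1, its HSP10 lid (55088132 to 55091307, plus strand), had 142, 153 and 169 CPM against 209.5, 209 and 209 CPM, a log2 fold change of 0.44 (SE 0.06; edgeR adjusted p = 5.79e-05). The controls of Hspe1 were spread and its Circ-INSR siRNA libraries nearly equal, and the groups did not overlap. This head-to-head pair, whose promoter window is given above, rose together but unequally. Hspd1 exceeded Hspe1 by 5.02, 4.83 and 4.54 times in control and by 6.0, 6.05 and 6.02 times in Circ-INSR siRNA libraries (log2 difference 0.33; exact permutation test, two-sided p = 0.1, the smallest possible). Their exons share 112 bases on opposite strands.

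**Figure D4:**
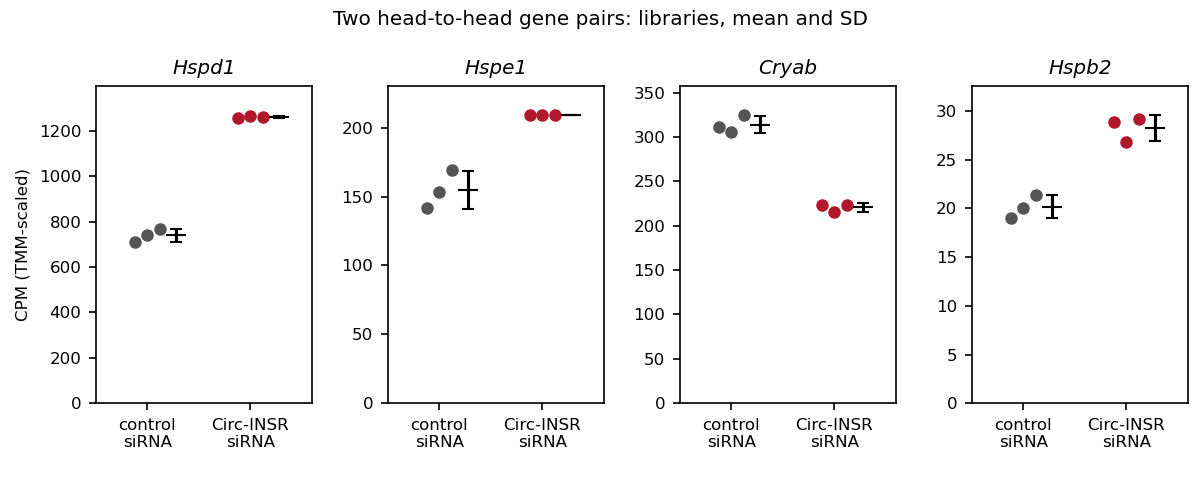
CPM of the head-to-head pairs Hspd1 with Hspe1 and Cryab with Hspb2 (y axes from 0, a scale for each gene), with 1 point for each library and the mean with its SD beside the points. Both genes of the first pair are higher after Circ-INSR siRNA, and in the second pair Cryab is lower and Hspb2 higher.

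Hspa9, the matrix HSP70 mortalin, had 960.4, 960.5 and 963 CPM in control and 1179, 1177 and 1133 CPM in Circ-INSR siRNA libraries, a log2 fold change of 0.27 (SE 0.04; edgeR adjusted p = 3.85e-05). Trap1, the mitochondrial HSP90, had 59.1, 57.6 and 57.3 CPM against 75.1, 72.1 and 73.9 CPM, a log2 fold change of 0.35 (SE 0.04; edgeR adjusted p = 2.56e-05). Neither of these had overlapping groups. Dnaja3, the matrix J-domain partner of mortalin, went the other way, with 68.0, 67.7 and 66.9 CPM against 46.0, 46.4 and 46.1 CPM. Its log2 fold change of -0.55 (SE 0.04; edgeR adjusted p = 4.88e-07) was the largest fall of the 34 genes, and its replicates differed by little. Clpx, the unfoldase of the ClpXP protease, fell from 54.8 ± 1.01 to 47.6 ± 1.44 CPM (-0.20, SE 0.04; edgeR adjusted p = 0.00205). Clpp, the proteolytic subunit, had 42.4 ± 0.263 and 44.6 ± 1.38 CPM (SD, n = 3 each). Its log2 fold change was 0.07 (95% interval from -0.03 to 0.17). It was called higher after removal of the length and GC trend (0.15; edgeR adjusted p = 0.00361). Of 16 other mitochondrial co-chaperones and proteases 5 rose and 3 fell (28.5% of all genes tested each way), with a median of 0.03. The protease genes Spg7 and Lonp1 fell, from 179.5 ± 2.86 to 125.4 ± 1.74 CPM and from 342.6 ± 17.0 to 237.5 ± 6.36 CPM, and had the smallest adjusted p of that list.

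In all, the lists of other chaperone genes held 88 genes that are no members, of which 85 were tested, 27 rose and 22 fell. These are 31.8% and 25.9%, close to the shares of all genes, with a median of 0.0067.

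**Figure D5:**
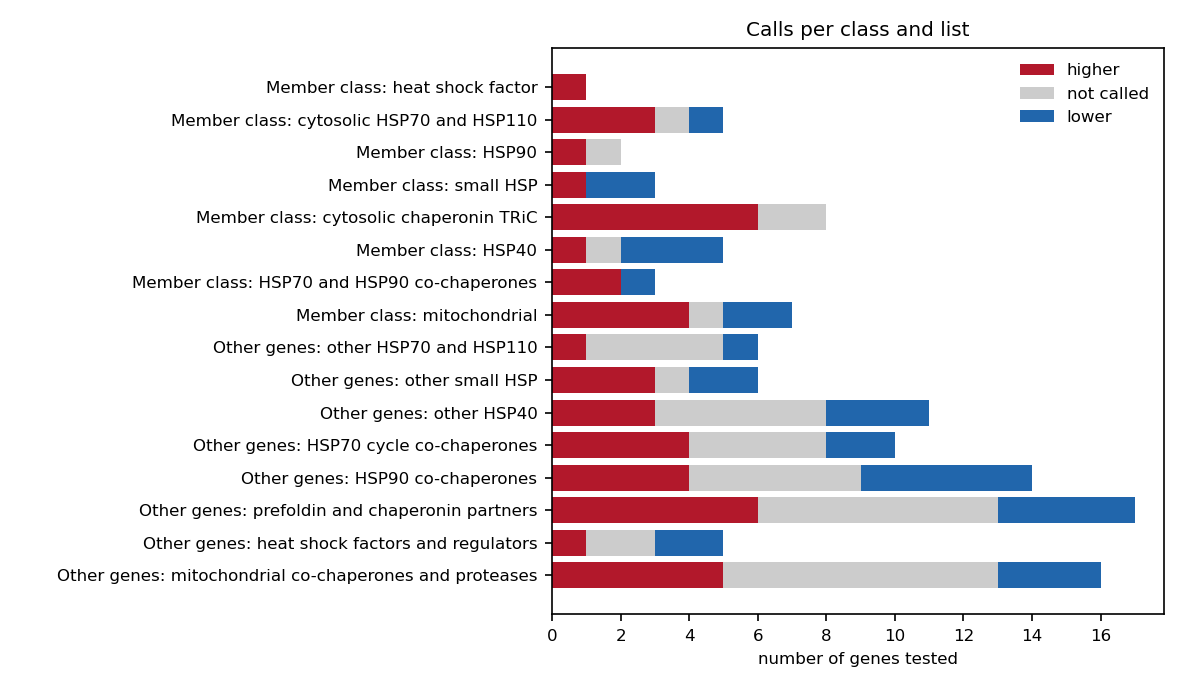
Number of genes called higher (red), not called (grey) and called lower (blue) in each class of the 34 members and in each list of other chaperone genes (bars from 0). TRiC, the largest class, has the most genes called higher (6 of 8), and 28.5% of all genes tested were higher and 28.5% lower. The small heat shock, HSP40, HSP70 and HSP110, co-chaperone and mitochondrial classes each hold genes called in both directions.

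The sources used here do not say how reads that match several places were counted. Several members have near-identical copies, mostly processed pseudogenes, that can take or share their reads. Summing each member with its copies in the files left the calls of Cct7, Dnaja1, Dnajb6, Hsp90aa1, Hspa1b, Hspa8, Hspb1 and Hspd1 where they were. Copies absent from the files could not be added, and of 5 copies found for Hspa8 only 1 was present. The pseudogene copies tested had the same calls as their members. The sum therefore cannot tell whether shared or lost reads mattered. Hspa1a, not called alone, was part of a summed pair that was called lower, as given above. With copies summed, the log2 fold change was 0.78 for Hspd1, 0.47 for Hspa8, 0.48 for Hspb1, 0.31 for Dnaja1 and -0.33 for Dnajb6. Exons of members also overlap those of genes on the opposite strand, over 19% of the exonic bases of Hspa1a (Gm20481), 12.5% of Cct6a (Psph), 11.4% of Tcp1 (Acat3), 7.05% of Dnaja1 (Smu1) and 6.22% of Cct8 (Usp16). Reads there cannot be told apart if strand was not used.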

How the data were processed

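Poly(A)-selected RNA of 6 HL-1 libraries was analysed, 3 for each group. The values deposited by the authors are whole-number counts for each Ensembl gene ID, not normalized. The submitters' processing notes name the build mm10 and, without roles, STAR 2.5.0c, StringTie 1.3.5, featureCounts 1.6.4, Trim Galore, bcl2fastq, MultiQC 1.7 and FastQC 0.11.4. No annotation release, strand setting or rule for reads with several matches is given in the sources used here. In each file, counts of 2 outnumbered counts of 1 and counts of 4 outnumbered counts of 3. Whether both mates of read pairs were counted was not tested, and halved counts were among the alternatives.

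Symbols and positions came from GENCODE M21 (mm10), which held 36308 of the 38087 IDs. edgeR 4.0.16 (R 4.3.3) was used for the comparison. Genes were filtered with filterByExpr (minimum count 10, total 15; 16666 kept) and scaled by TMM, and the robust quasi-likelihood F-test was run with group as the only term. Benjamini-Hochberg adjustment ran over these genes, with a threshold of 0.05. SE is the fold change over the square root of F, and 95% intervals use the t distribution. The common biological coefficient of variation was 6.09%. In these libraries 3 counts equal 0.0395 to 0.0496 CPM. The steps were run on simulated data in which few genes changed, evenly up and down, without a replicate effect. That setting differs from these data, where 57.0% of the genes tested were called, so it does not check error rates here. Separate cultures are not mentioned in the labels. The p-values therefore rest on the spread between these samples, and this may be technical.

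Principal transcripts are those of APPRIS in GENCODE or, where none is marked, the longest. Copies were found with BLAST 2.17.0 (at least 95% identity over 200 bases). Named are all 34 members, Insr, and for each list of other chaperone genes the 2 with the smallest adjusted p. Hspa4l was named in addition, as a further HSP110 gene. The members and lists were chosen with earlier results of these data known. Alternatives were other scalings and filters, DESeq2 1.42.0, limma-voom (limma 3.58.1), halved counts, the replicate block, each library left out in turn, and offsets that take out the trend of counts on GC content and exonic length. Summing of copies was added after the data were seen. Same-numbered libraries of the groups deviated together, with correlations of 0.139, 0.3195 and 0.268 over 11099 genes. Libraries with unlike numbers had correlations from -0.243 to 0.0269. The pairing thus comes from the numbers in the titles and this check, and the labels do not explain the numbers. Neither the main test nor the exact permutation tests used it.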

Additional observations from a re-analysis of the deposited data

How the results depend on the processing

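Of the 34 members, 28 kept their direction and their side of the threshold under all 16 alternatives, and 26 of these were called genes. The exceptions were Hsf1, Hspa1b, Hsp90aa1, Cct4, Cct7 and Clpp. With the replicate number as a block, 19 members were higher and 9 lower, as without it, and it changed the call of 0 members. Hsp90aa1, which did not pass the test, changed sign to -0.0106 with total-count scaling, -0.0081 without control replicate 1 and -0.0097 after removal of the length and GC trend. Without control replicate 3 it was 0.0878 and passed the test. The count of called heat shock factors (Hsf1 alone) was 0 with upper-quartile and total-count scaling and 0 to 1 with a library left out. Lower HSP70 and HSP110 genes numbered 0 with the length and GC trend removed and 0 to 1 with a library left out, and higher HSP90 genes 1 to 2 with a library left out. Lower TRiC genes numbered 1 with total-count scaling and 2 with the length and GC trend removed. Of the other chaperone genes 16 were higher with total-count scaling, against 27, and that scaling moved the median of all genes from -0.0045 to -0.0495. The causes of these changes were not tested. Hspa1a, with about 5 CPM, had the widest interval of the members.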

Other observations

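Processed pseudogenes with near-identical sequence were counted beside several members, and their values are given here with no explanation. Of 13 such copies in the files 12 were tested, and 12 had the same call as their parent gene. The 6 that rose were Gm15542, Gm7816 and Gm6335 (copies of Dnaja1), Gm8355 (Hspa8), Hsp25-ps1 (Hspb1) and Hspd1-ps3 (Hspd1). Hspd1-ps3 averaged 48.5 CPM in the controls and 87.8 CPM after Circ-INSR siRNA, and Gm8355 averaged 130.2 and 164.8 CPM. The 4 that fell were copies of Dnajb6, with log2 fold changes from -0.62 to -0.34, and the 2 that did not pass the test were copies of Hsp90aa1 (-0.05 and -0.07). Counts of copies came to 30.7% of those of Dnaja1, 23.9% of Dnajb6, 15.7% of Hspb1, 13.4% of Hsp90aa1, 6.83% of Hspd1 and 6.39% of Hspa8, summed over the 6 libraries.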
